A study of Mus musculus with 4 samples.

Results

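The genes described here are those of TGF-β and its nearest partners: the ligands *Tgfb1*, *Tgfb2* and *Tgfb3*, the receptors *Tgfbr1*, *Tgfbr2* and *Tgfbr3*, and the latent TGF-β binding proteins *Ltbp1*, *Ltbp2*, *Ltbp3* and *Ltbp4*. They were taken by name and not by a cut on their values, as 10 of the 27998 genes counted, though earlier results of these data were known. Unique molecular identifiers (UMIs, single captured transcripts) were counted by 10X 3′ single-cell RNA sequencing in 4 libraries of cells sorted from hindlimb muscle, and the genes were followed across the states of the myogenic cells and across the other cell types that the sort had let through. The question put to them is how the TGF-β system of satellite cells differs between dystrophic and healthy muscle, and between the DBA and B10 backgrounds.

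Each library came from 1 strain and pooled 2 mice, so none had a replicate. B10 (C57/Bl10ScsSn, 15 weeks) was the healthy control of *mdx* (C57BL/10ScSn-Dmdmdx, 11 weeks), which carries the *mdx* allele of *Dmd* on that background. DBA (DBA/2, 13 weeks) was the healthy control of D2-*mdx* (D2.B10-Dmdmdx, 14 weeks), which carries the *mdx* allele on the DBA background. Age therefore differed with strain, and the 2 cannot be told apart. In all 4, the cells positive for ITGA7 and VCAM1 and negative for CD11b, Sca1, CD45 and CD31 were collected by sorting.

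TGF-β is made as a precursor in which the mature ligand stays bound to its own propeptide. This latent complex is disulphide-linked to an LTBP, which anchors it to fibrillin and fibronectin in the extracellular matrix until integrins, thrombospondin or proteases set the ligand free. Free ligand brings the type II receptor TGFBR2 and the type I receptor TGFBR1 together, and the latter phosphorylates SMAD2 and SMAD3. TGFBR3, or betaglycan, is a co-receptor that presents the ligands, above all TGF-β2, and also binds inhibins. In skeletal muscle TGF-β is known as an inhibitor of myoblast differentiation and a driver of fibrosis, and *Ltbp4* is known as a genetic modifier of dystrophy on the DBA background.

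Filtering left 4581 cells of B10, 6313 of *mdx*, 3279 of DBA and 5756 of D2-*mdx*, and 4417, 4811, 2700 and 4170 of them were myogenic. The myogenic cells of a library held between 30126637 and 40256620 UMIs. Their median depth ran from 6473.5 UMIs per cell in D2-*mdx* to 10294.5 in DBA. Pairs of libraries shared 3 to 8 cell barcodes among the kept cells. Clusters were named from markers, and each name means a resemblance only. MuSC-like cells (*Pax7*, *Myf5*, *Calcr*) made up 92.7% of the myogenic cells in B10 and 66.0% in *mdx*, and 93.7% in DBA and 68.1% in D2-*mdx*. A DMD-enriched state led by *Postn*, *Mgp* and *Col1a2* held 32, 1001, 22 and 578 cells. *Dmd*, which the *mdx* allele disrupts, stood at 324 UMIs per 1000000 (CPM) in B10 and 119 in *mdx*, and 287 in DBA and 94.2 in D2-*mdx* over the myogenic cells, lower in both libraries labelled as mutant.

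Levels are in CPM, a gene's UMIs per 1000000 UMIs of the same cells, with the exact Poisson 95% interval in parentheses. Ratios between libraries are log2 ratios of these levels with an exact binomial 95% interval. Both intervals cover counting error only. Cells of 1 library are not replicates of a strain, and no test was run. A gene was called past 2-fold by the size of its ratio alone, among the genes that reached 10 CPM in either library.

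The promoters of *Tgfb1* and *Tgfb2* are shown because these ligands were the ones whose levels were higher in both dystrophic libraries than in their controls. The sequences are from RefSeq on GRCm38.p6 and hold the 250 bases before the annotated start, 5′ to 3′ on the strand of the gene. Capitals mark the motifs that were found.
*Tgfb1*, chr7:25686752-25687001, plus strand: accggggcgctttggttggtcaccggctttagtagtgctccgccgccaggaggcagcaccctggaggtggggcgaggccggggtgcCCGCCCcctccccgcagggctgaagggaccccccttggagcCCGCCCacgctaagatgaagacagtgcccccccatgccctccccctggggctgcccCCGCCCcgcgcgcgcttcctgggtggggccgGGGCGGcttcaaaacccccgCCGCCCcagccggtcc
*Tgfb2*, chr1:186705990-186706239, minus strand: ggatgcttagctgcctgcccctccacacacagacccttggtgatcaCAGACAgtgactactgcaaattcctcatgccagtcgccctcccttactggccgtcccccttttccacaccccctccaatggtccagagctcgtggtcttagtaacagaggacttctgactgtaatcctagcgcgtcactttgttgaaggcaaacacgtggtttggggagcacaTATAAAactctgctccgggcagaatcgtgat
Of the bases, 75.2% are G or C in the *Tgfb1* promoter and 53.6% in that of *Tgfb2*. The GC box, GGGCGG or CCGCCC on the other strand, occurs 5 times in the *Tgfb1* promoter, beginning 164, 123, 67, 36 and 16 bases before the start, and is not in the *Tgfb2* window. The *Tgfb2* promoter holds a TATA box, TATAAA, beginning 31 bases before the start, and a Smad motif, CAGACA, 204 bases before it, and neither is in the *Tgfb1* window. Among 32851 RefSeq promoter windows of the same length, 32.7% hold a GC box, 12.4% a TATA box and 17.1% the Smad motif on either strand. The AP-1 motif TGANTCA, in 6.75% of windows, and the CRE motif TGACGTCA, in 1.55%, are in neither. The GC and TATA boxes were chosen after the sequences were seen. These matches describe the letters, and binding was not measured. RefSeq promoters were matched for 8 of the 10 genes, *Tgfb3* and *Tgfbr3* being the others.

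In myogenic cells *Tgfb1* and *Tgfbr3* stood apart between dystrophic and healthy libraries on both backgrounds, in opposite directions. *Tgfb1*, the isoform best known in fibrosis, was about 5 times higher in *mdx* than in B10 and in D2-*mdx* than in DBA, and *Tgfbr3* was lower by more than 2-fold in both. The paper had already named *Tgfb1* among the genes higher in both models, from these same libraries. *Tgfb2* passed 2-fold only in D2-*mdx* over DBA, and *Ltbp4* only in *mdx* over B10, where it was lower. The *Tgfb2* call, and the lack of an *Ltbp4* call in D2-*mdx* over DBA, depend on the upper limit of genes per cell. *Ltbp4* in *mdx* over B10 stayed past 2-fold in all 13 alternatives, from -1.62 to -1.03. With at least 500 genes and no upper limit, *Tgfb2* was at 0.85 and *Ltbp4* at -1.10 in D2-*mdx* over DBA, and 19.1% of all genes passed 2-fold in that pair. In *mdx* over B10, 1 gene of the 9 with enough UMIs was past 2-fold higher (*Tgfb1*) and 2 were lower (*Tgfbr3*, *Ltbp4*), where 9.82% of all 8475 genes were past 2-fold in either direction, 4.63% higher and 5.19% lower. In D2-*mdx* over DBA, 2 of 9 were higher (*Tgfb1*, *Tgfb2*) and 1 lower (*Tgfbr3*), where the share of all 8502 genes was 11.7%, 5.83% higher and 5.87% lower. The median log2 ratio of the 9 genes was -0.41 in *mdx* over B10 and -0.60 in D2-*mdx* over DBA, against -0.04 and -0.07 over all genes tested. These medians are over all myogenic cells, whose mix of states differed between the libraries. There the medians, each over 3 genes, were 0.62 and 1.23 for ligands, -0.50 and -0.62 for receptors, and -0.47 and -0.62 for binding proteins. In MuSC-like cells alone they were 0.71 and 1.31, -0.43 and -0.45, and -0.13 and -0.13. A median of 3 genes is the value of 1 of them, and the ligand *Tgfb3* had the opposite sign, -0.23 and -0.60 over all myogenic cells.

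Between backgrounds none of them passed 2-fold. The count was 0 of 9 genes in D2-*mdx* over *mdx*, where 3.56% of all genes passed, and 0 of 8 in DBA over B10, where 3.55% passed. Each library enters 2 of these 4 ratios, so the ratios are not independent of one another.

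**Figure D1:**
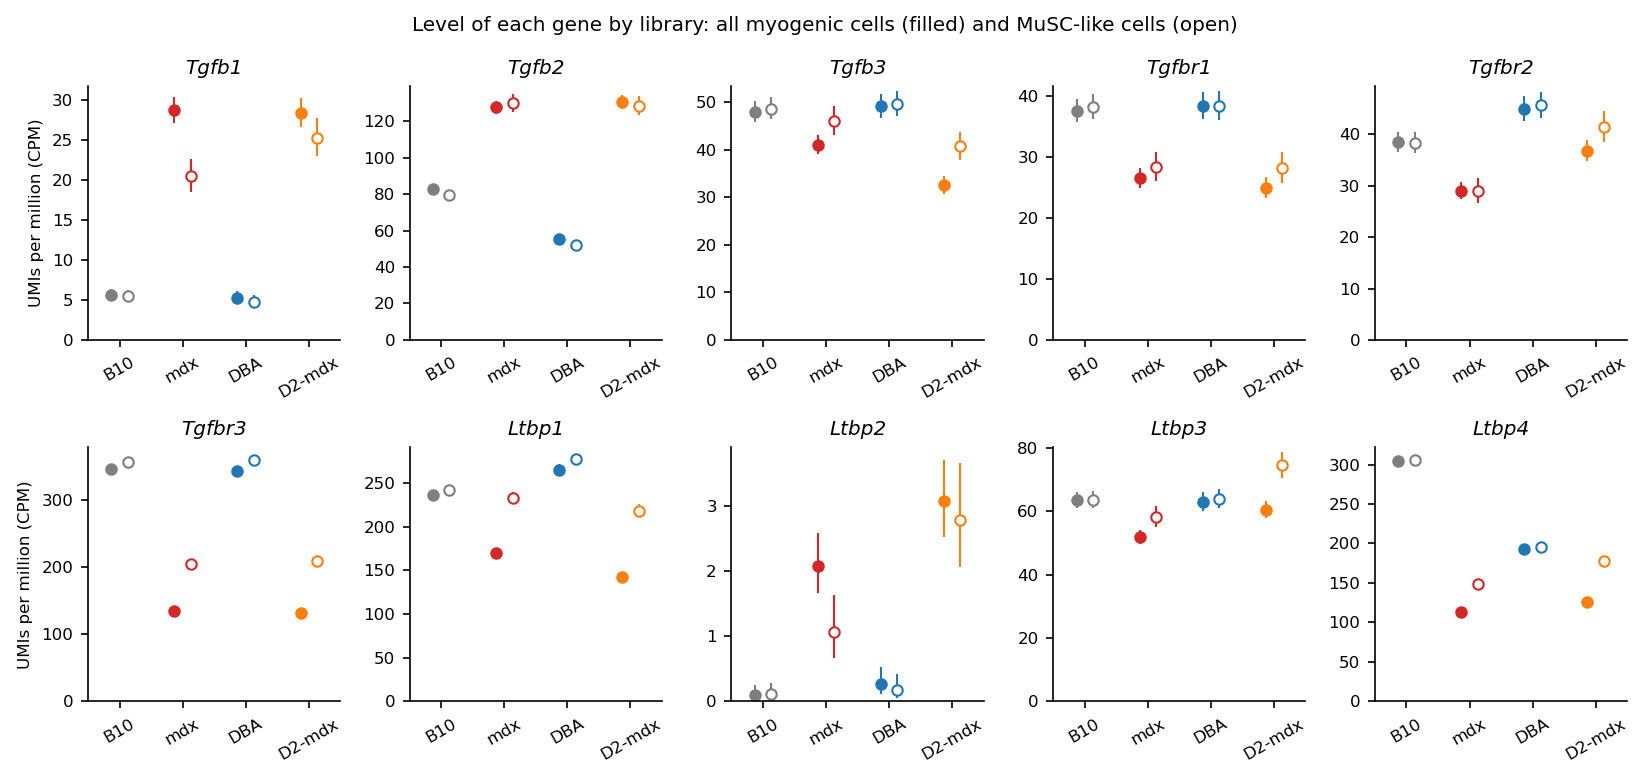
Level of each of the 10 genes in UMIs per 1000000 (CPM, from 0) by library, over all myogenic cells (filled points) and over MuSC-like cells alone (open points), with 95% counting intervals. *Tgfb1* reaches 28.8 CPM in *mdx* and 28.4 in D2-*mdx* against 5.57 in B10 and 5.24 in DBA, and *Tgfbr3* shows the opposite order.

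*Tgfb1* (7:25687002-25705077, plus strand) had 222 UMIs in B10 and 1158 in *mdx*, and 158 in DBA and 989 in D2-*mdx* over the myogenic cells. Its level was 5.57 CPM (4.86 to 6.35) in B10 and 28.8 (27.1 to 30.5) in *mdx*, and 5.24 (4.46 to 6.13) in DBA, with 28.4 (26.7 to 30.3) in D2-*mdx*. The dystrophic libraries lay together well above the healthy ones, and the intervals of each pair on different backgrounds overlapped. The log2 ratio was 2.37 (2.16 to 2.58) in *mdx* over B10 and 2.44 (2.19 to 2.69) in D2-*mdx* over DBA, and the difference of these ratios, 0.07 (-0.25 to 0.39), was within counting error.

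Within MuSC-like cells alone *Tgfb1* was at 5.46, 20.5, 4.78 and 25.3 CPM in B10, *mdx*, DBA and D2-*mdx*, with ratios of 1.91 and 2.40. Among the myogenic states, each taken whole, it was highest in the DMD-enriched cells, at 45.6 CPM (42 to 49.5) in *mdx* and 47.8 (42.7 to 53.2) in D2-*mdx*. It was lowest in differentiating myocytes. Within the MuSC-like state, cluster 6, led by *Dlk1* and *Hhip*, reached 56.1 CPM in 113 cells of D2-*mdx*. In *mdx* this cluster was at 54.1 CPM in 41 cells, fewer than the 50 set for comparisons by class. Both values lay above those of the DMD-enriched cells, with overlapping counting intervals. Cells of the DMD-enriched state gave 29.1% of all *Tgfb1* UMIs of the *mdx* library and 17.3% of those in D2-*mdx*, against 2.79% in B10 and 0.35% in DBA. The state made up 15.9% of the kept cells in *mdx* and 10.0% in D2-*mdx*, against 0.70% in B10 and 0.67% in DBA. Its cells were deeper, with a median of at least 1.33 times that of all myogenic cells in each library. A share of UMIs above the share of cells therefore reflects depth as well as level.

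Outside the myogenic cells *Tgfb1* was highest in white blood cells, at 217 CPM in *mdx* and 230 in D2-*mdx*, followed by endothelial cells at 141 and 142 CPM. These ranges did not overlap each other or that of the next class, the fibro-adipogenic or tenocyte cells, at 83.5 CPM in the D2-*mdx* library. White blood markers summed to 1.63, 26.0, 7.47 and 103 CPM in the myogenic cells of B10, *mdx*, DBA and D2-*mdx*, 7 of the 8 markers being seen in B10 and all 8 in the others. They were at 21929 and 29778 CPM in the white blood cells of *mdx* and D2-*mdx* themselves. White blood RNA at this share would carry 0.257 CPM of *Tgfb1* into the myogenic cells of *mdx* and 0.794 into those of D2-*mdx*, and endothelial RNA 0.20 and 0.231. With the myogenic cells that held UMIs of at least 2 markers of white blood, endothelial or fibro-adipogenic cells left out, the log2 ratios of *Tgfb1* were 2.50 and 2.71. That filter removed 28.7%, 24.8%, 24.8% and 50.1% of the myogenic cells of B10, *mdx*, DBA and D2-*mdx*. Fibro-adipogenic markers summed to 574, 239, 775 and 442 CPM in the myogenic cells, so the filter does not single out cells with RNA of other types. The source of the *Tgfb1* UMIs was not tested. In pericytes *Tgfb1* was also higher in *mdx* than in B10, 24.5 against 7.57 CPM, and in D2-*mdx* than in DBA, 30.02 against 12.2.

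Thinned to 3000 UMIs, 1.69% of B10, 6.53% of *mdx*, 1.26% of DBA and 7.48% of D2-*mdx* myogenic cells held a UMI of *Tgfb1*, against 4.30%, 16.2%, 4.96% and 17.0% unthinned. The median depths were 8471, 6841, 10294.5 and 6473.5 UMIs in the cells that could be thinned, from which 38 shallower B10 cells were left out. In white blood cells, a known source of the gene, the thinned shares were 36.4% in *mdx* and 47.5% in D2-*mdx*. As in CPM, both dystrophic libraries lay above both healthy ones.

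*Tgfb2* (1:186622792-186705989, minus strand), the ligand that depends most on betaglycan, had 3306 UMIs in B10 and 5136 in *mdx*, and 1672 in DBA and 4535 in D2-*mdx* over the myogenic cells. Its level was 82.9 CPM (80.1 to 85.8) in B10 and 128 (124 to 131) in *mdx*, and 55.5 (52.9 to 58.2) in DBA, with 130 (127 to 134) in D2-*mdx*. The dystrophic libraries overlapped each other, while B10 lay above DBA with intervals apart. The log2 ratio was 0.62 (0.56 to 0.69) in *mdx* over B10 and 1.23 (1.15 to 1.31) in D2-*mdx* over DBA. The ratio was larger on the DBA background by 0.61 (0.51 to 0.71) on the log2 scale, DBA being lower than B10 by a log2 ratio of -0.58 and D2-*mdx* over *mdx* being 0.03 (-0.03 to 0.09).

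The difference in *Tgfb2* was also seen in MuSC-like cells alone, with ratios of 0.71 and 1.31, and in the largest clusters of these cells. It was smaller in differentiating myocytes, where the log2 ratios were 0.02 (-0.19 to 0.22) and 0.78 (0.54 to 1.02). In pericytes *Tgfb2* was at 62.5 CPM in B10 and 59.6 in *mdx*, and 45.5 in DBA and 24.4 in D2-*mdx*, so that the lowest of the 4 was the dystrophic DBA library, with a ratio over DBA of -0.90 (-1.18 to -0.62).

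Across classes *Tgfb2* was led by differentiating myocytes, with a mean of 151 CPM over 4 libraries (124 to 212), DMD-enriched cells, 141 (131 and 152), and vascular smooth muscle, 139 in *mdx*. The ranges of these 3 overlapped, and other clustering put DMD-enriched cells or vascular smooth muscle first. Endothelial cells had the lowest mean, with 13.7 CPM in *mdx* and 6.34 in D2-*mdx*, and overlapped the Schwann cells, at 6.84 and 57.3 CPM. Thinned to 3000 UMIs, 18.7% of myogenic cells held a *Tgfb2* UMI in B10 and 27.9% in *mdx*, and 14.4% in DBA and 29.9% in D2-*mdx*, against 2.78% and 2.25% of endothelial cells in *mdx* and D2-*mdx*, whose median depths were 7481 and 7687 UMIs. Unthinned, the myogenic shares were 37.8%, 49.4%, 35.4% and 51.8%.

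*Tgfb3* (12:86056745-86079041, minus strand), the last of the ligands, stayed within 2-fold, except that it reached -1.02 in D2-*mdx* over DBA with no upper limit on genes per cell. Its myogenic level was 48.1 CPM in B10 and 41.0 in *mdx*, and 49.2 in DBA and 32.5 in D2-*mdx*, with log2 ratios of -0.23 (-0.32 to -0.13) and -0.60 (-0.71 to -0.48). Both dystrophic libraries lay below both healthy ones, and within MuSC-like cells the ratios were -0.08 (-0.20 to 0.04) and -0.29 (-0.42 to -0.15). *Tgfb3* was highest in the mural cells, whose ranges overlapped. Vascular smooth muscle held 110 CPM in *mdx*, and pericytes held 125 CPM (105 to 148) in B10 and 72.2 (65.0 to 80.0) in *mdx*, and 113 (105 to 122) in DBA, with 42.4 (37.9 to 47.3) in D2-*mdx*. In pericytes both dystrophic libraries were below their controls, with ratios of -0.79 (-1.08 to -0.49) and -1.42 (-1.61 to -1.22). Pericytes gave 6.3%, 16.4%, 29.0% and 20.6% of all *Tgfb3* UMIs in B10, *mdx*, DBA and D2-*mdx*, with 97, 610, 484 and 981 pericytes kept.

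**Figure D2:**
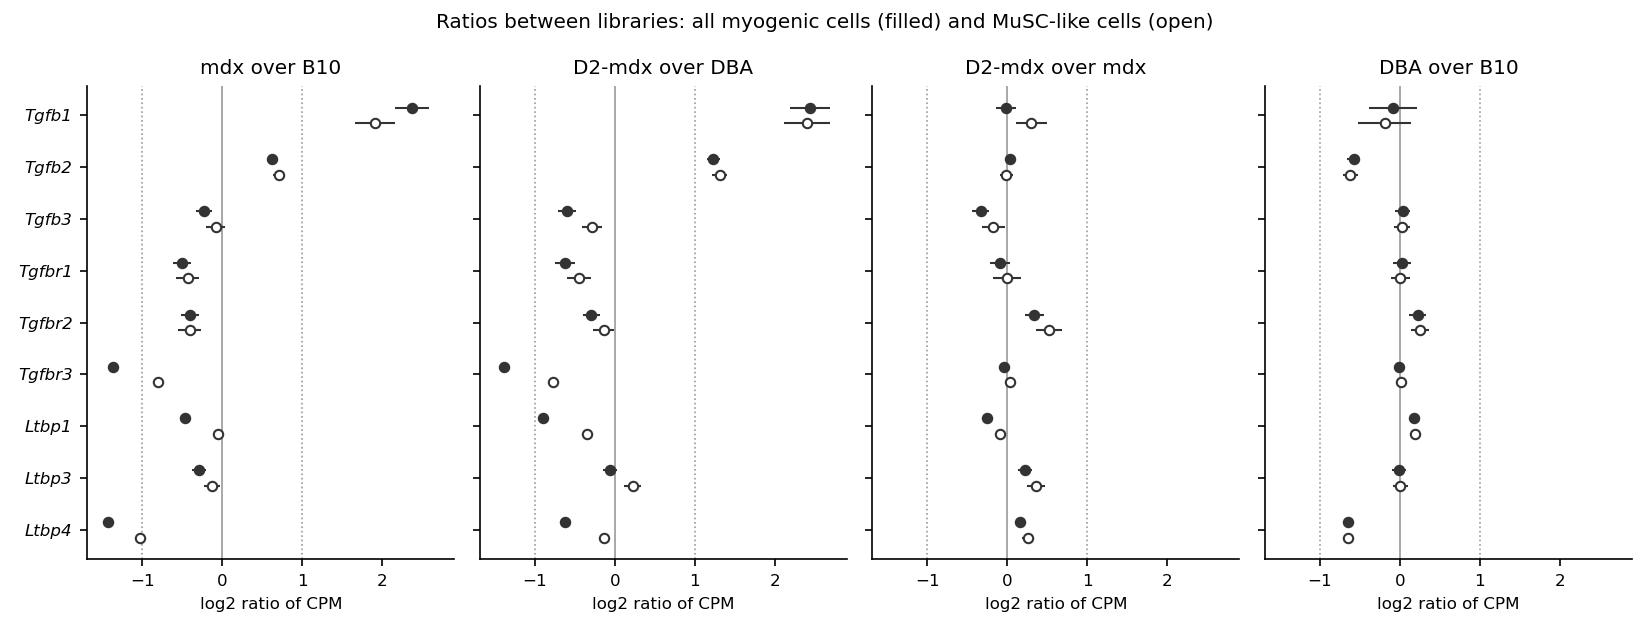
Log2 ratios of CPM with 95% counting intervals for the 9 genes with at least 10 CPM, 1 panel per pair of libraries, over all myogenic cells (filled) and over MuSC-like cells alone (open). *Tgfb1* sits at 2.37 and 2.44 in the pairs of dystrophic over healthy libraries, *Tgfbr3* at -1.36 and -1.39 but at -0.80 and -0.78 in MuSC-like cells, and all genes stay within 2-fold in the pairs that compare backgrounds.

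Both signalling receptors stayed within 2-fold in all 4 pairs. *Tgfbr1* (4:47353222-47414931, plus strand), the kinase that phosphorylates SMAD2 and SMAD3, was at 37.6 CPM in B10 and 26.6 in *mdx*, and 38.4 in DBA and 24.95 in D2-*mdx*. *Tgfbr2* (9:116084293-116175360, minus strand), which binds the ligand first, was at 38.5, 29.1, 45.0 and 36.8 CPM. For *Tgfbr1* the healthy libraries overlapped each other and lay above the dystrophic ones, with log2 ratios of -0.50 (-0.62 to -0.39) and -0.62 (-0.75 to -0.50). For *Tgfbr2* the ratios were -0.41 (-0.52 to -0.30) and -0.29 (-0.40 to -0.18), and D2-*mdx* was above *mdx* by 0.34 (0.22 to 0.45).

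Both signalling receptors were seen at higher levels in some classes that are not myogenic, and at lower levels in others. Pericytes and vascular smooth muscle lay below MuSC-like cells for both, and glial, endothelial and Schwann cells did so for *Tgfbr1*. *Tgfbr1* was highest in white blood cells, at 101 CPM in *mdx* and 62.2 in D2-*mdx*, then in fibro-adipogenic or tenocyte cells at 59.8 CPM, and MuSC-like cells followed with a mean of 33.3 (28.2 to 38.4). *Tgfbr2* was highest in fibro-adipogenic or tenocyte cells of D2-*mdx*, at 268 CPM (229 to 311). Schwann, endothelial and glial cells came next with means of 144, 118 and 117 CPM and overlapping ranges, and MuSC-like cells had a mean of 38.6 (29.0 to 45.7). In pericytes *Tgfbr1* differed in direction between the pairs, with ratios of -0.44 (-1.01 to 0.16) in *mdx* over B10 and 0.52 (0.19 to 0.85) in D2-*mdx* over DBA.

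A cell needs both signalling receptors to answer, and few cells showed UMIs of both at this depth. Thinned to 3000 UMIs, 1.39% of B10, 0.478% of *mdx*, 1.26% of DBA and 1.03% of D2-*mdx* myogenic cells held UMIs of *Tgfbr1* and *Tgfbr2* together. The product of the single shares was 1.27%, 0.681%, 1.23% and 0.842%. White blood cells, which are known to carry both, gave 4.67% in *mdx* and 1.88% in D2-*mdx*. A missing UMI at this depth does not show a missing receptor.

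*Tgfbr3* (5:107106570-107289629, minus strand), the betaglycan gene, had 13801 UMIs in B10 and 5421 in *mdx*, and 10345 in DBA and 4568 in D2-*mdx* over the myogenic cells. Its level was 346 CPM (340 to 352), 135 (131 to 138), 343 (337 to 350) and 131 (128 to 135). The healthy libraries overlapped each other, the dystrophic ones overlapped each other, and a wide gap lay between. The log2 ratio was -1.36 (-1.41 to -1.32) in *mdx* over B10 and -1.39 (-1.44 to -1.34) in D2-*mdx* over DBA, differing by -0.03 (-0.09 to 0.04).

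The mix of states moved with this difference. *Tgfbr3* was highest in MuSC-like cells, at 356 CPM in B10 and 205 in *mdx*, and 359 in DBA and 209 in D2-*mdx*. It was lower in the states that were more frequent in dystrophic libraries, at 83.9 and 72.8 CPM in DMD-enriched cells and 19.1 and 16.8 in cycling progenitors of *mdx* and D2-*mdx*. Within MuSC-like cells the ratios were -0.80 (-0.85 to -0.75) and -0.78 (-0.83 to -0.72), and with the mix of states held equal -0.91 and -0.94, all below 2-fold. Of the 9 genes with enough UMIs in MuSC-like cells, 1 was higher (*Tgfb1*) and 1 lower (*Ltbp4*) in *mdx* over B10, where 6.44% of all genes passed 2-fold in either direction, and 2 were higher (*Tgfb1*, *Tgfb2*) in D2-*mdx* over DBA, where 7.38% passed.

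The MuSC-like cells were not alike in this. In the largest cluster, rich in immediate-early genes (*Nr4a1*, *Btg2*, *Fosb*), *Tgfbr3* was at 369 CPM in B10 and 237 in *mdx*, and 372 in DBA and 244 in D2-*mdx*, with ratios of -0.64 and -0.61. In the cluster led by *Esm1*, *Fosl1*, *Tnc*, *Timp1* and *Plaur* it was at 234, 52.8, 286 and 69.9 CPM, with ratios of -2.15 (-2.40 to -1.91) and -2.03 (-2.26 to -1.81). The latter cluster held 463, 328, 315 and 297 cells, against 2331, 1901, 1507 and 1942 in the former. Its resemblance to MuSC was the weakest of the MuSC-like clusters, with a mean standardized marker level of 0.01 against 0.70 in the largest. Differentiating myocytes showed a difference of the same order, 232, 40.9, 148 and 42.9 CPM, with ratios of -2.50 (-2.76 to -2.25) and -1.79 (-2.09 to -1.48). Pericytes were lower too, 118 against 55.2 CPM and 117 against 61.7.

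**Figure D3:**
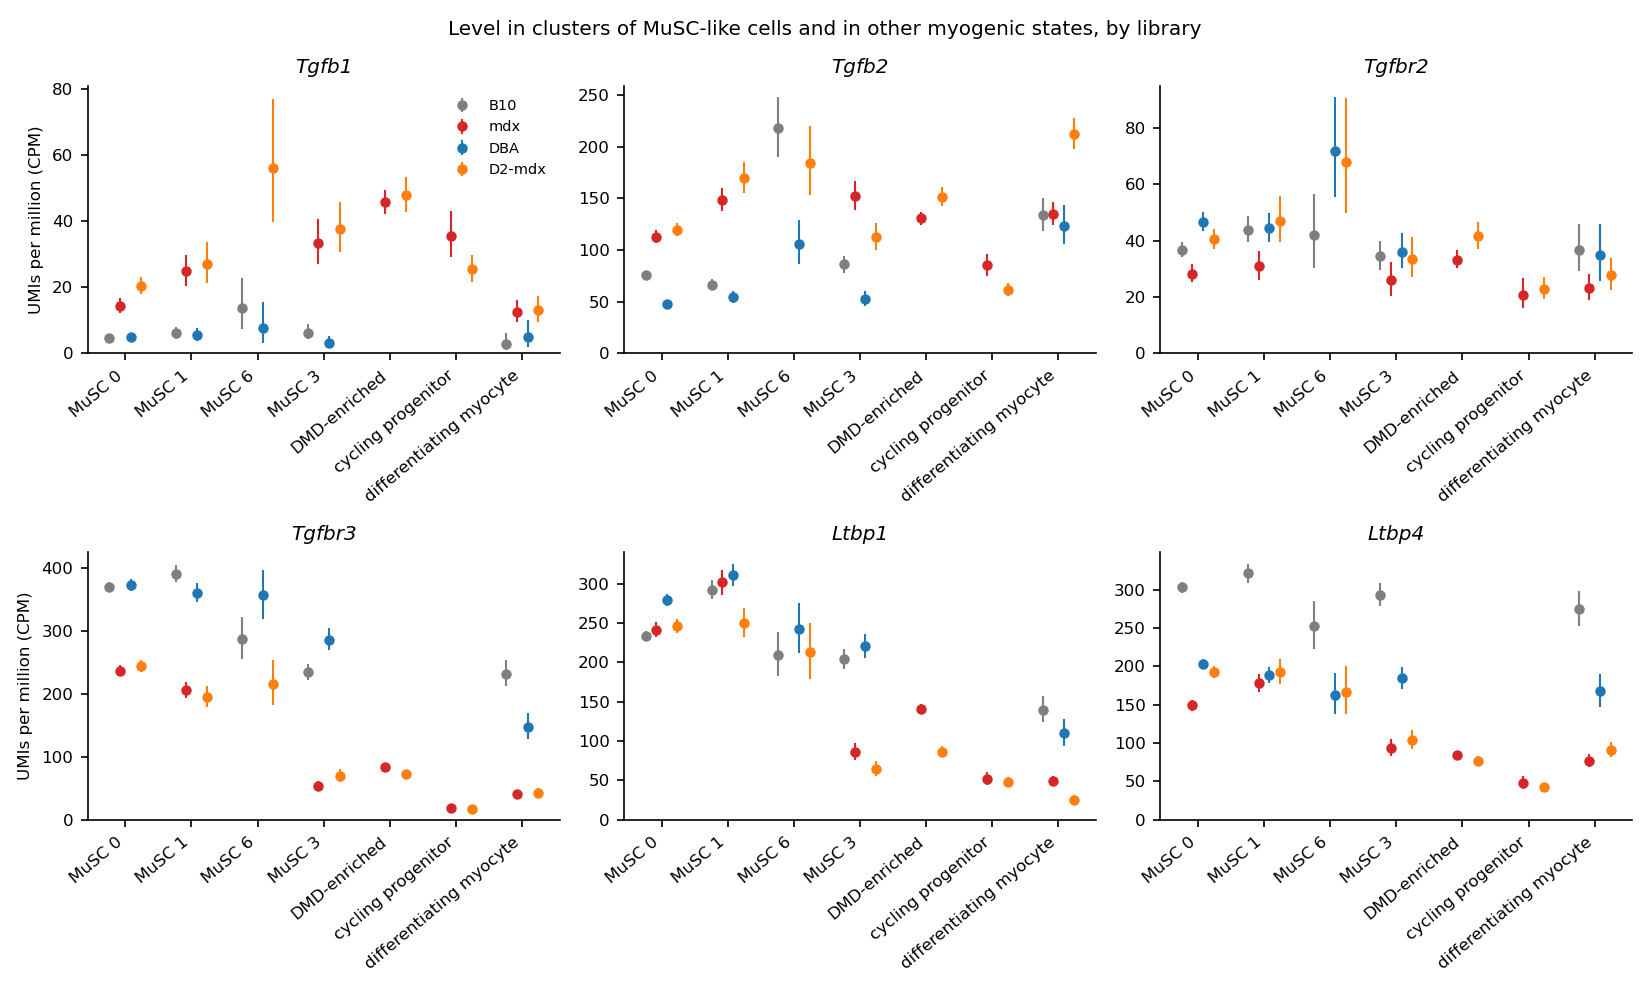
Level (CPM, from 0) of 6 genes in 4 clusters of MuSC-like cells (0, 1, 6 and 3) and in 3 other myogenic states, by library (colours), with 95% counting intervals, for classes with at least 50 cells in the library. In cluster 3 and in differentiating myocytes *Tgfbr3*, *Ltbp1* and *Ltbp4* are lower in *mdx* and D2-*mdx* than in B10 and DBA, while in clusters 0 and 1 the levels of *Ltbp1* lie close together.

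Of the myogenic cells thinned to 3000 UMIs, 62.8% in B10 and 36.0% in *mdx*, and 62.4% in DBA and 34.7% in D2-*mdx* held a UMI of *Tgfbr3*, against 90.3%, 58.9%, 92.6% and 55.4% unthinned. The share was 11.2% in white blood cells of *mdx* and 7.50% in those of D2-*mdx*, whose median depths were 8269 and 10182 UMIs. White blood cells held the MuSC markers *Pax7*, *Myf5*, *Calcr* and *Chodl* at 22.3% of their MuSC-like level in *mdx* and 15.9% in D2-*mdx*. RNA carried over at that share would give 45.6 and 33.2 CPM of *Tgfbr3*, where 48.2 and 38.3 were counted. Pericytes held these markers at 1.6% to 5.4% of the MuSC-like level. Such a share would carry 19.1, 3.29, 16.1 and 5.37 CPM of *Tgfbr3* in B10, *mdx*, DBA and D2-*mdx*. Counted there were 118, 55.2, 117 and 61.7 CPM, and the source of this RNA was not tested.

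**Figure D4:**
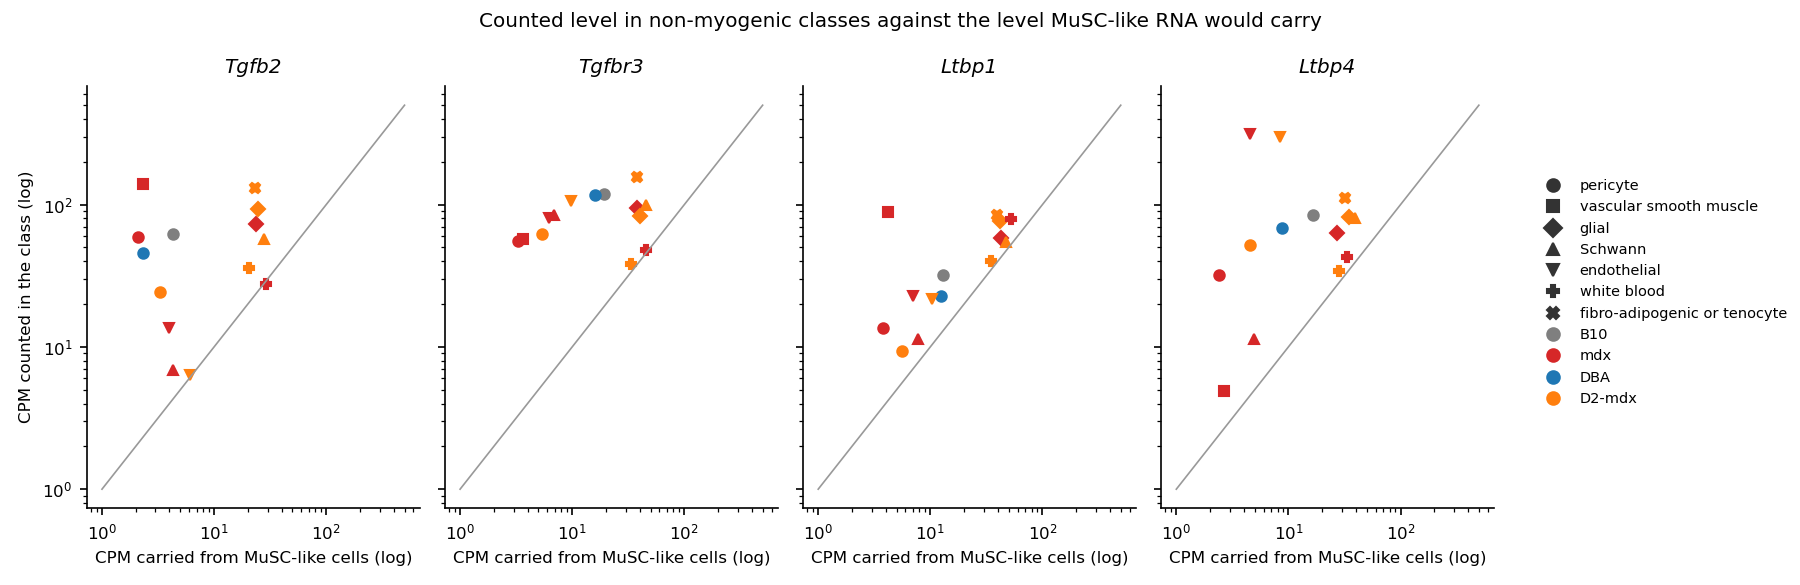
CPM counted in each class that is not myogenic (vertical, log scale) against the CPM that MuSC-like RNA would carry there at the share of *Pax7*, *Myf5*, *Calcr* and *Chodl* (horizontal, log scale), for 4 genes, with classes as symbols, libraries as colours and the line of equal values. White blood cells lie near the line for *Tgfbr3* (48.2 and 38.3 counted, 45.6 and 33.2 carried), and endothelial cells lie far above it for *Ltbp4* (316 and 301 counted).

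Among the latent TGF-β binding proteins, *Ltbp1* (17:75005568-75392512, plus strand), which anchors the latent complex in the matrix, was highest in MuSC-like cells. Its myogenic level was 236 CPM in B10 and 170 in *mdx*, and 266 in DBA and 143 in D2-*mdx*, with ratios of -0.47 (-0.52 to -0.43) and -0.90 (-0.95 to -0.85). The ratio was more negative on the DBA background by -0.43 (-0.49 to -0.36), and with no upper limit on genes per cell it was past 2-fold there, at -1.21. In MuSC-like cells alone the 4 libraries were at 243, 233, 277 and 219 CPM, and the ratios came to -0.06 (-0.11 to -0.005) and -0.34 (-0.40 to -0.29).

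As for *Tgfbr3*, the cluster led by *Esm1* and *Fosl1* differed from the rest. There *Ltbp1* was at 204, 86.5, 221 and 64.7 CPM, with ratios of -1.24 (-1.44 to -1.04) and -1.77 (-2.02 to -1.53), against 0.05 (-0.02 to 0.12) and -0.18 (-0.25 to -0.11) in the largest cluster. Differentiating myocytes were at 140, 49.0, 110 and 25.5 CPM. Across classes the MuSC-like cells had a mean of 243 CPM (219 to 277), whose range overlapped that of the interferon-rich immunomyoblasts, 219 (185 and 253). DMD-enriched cells followed at 113, and pericytes were lowest at 19.5 (9.40 to 32.2). In pericytes *Ltbp1* was at 32.2, 13.7, 22.9 and 9.40 CPM in B10, *mdx*, DBA and D2-*mdx*. MuSC-like RNA would carry 13.0, 3.75, 12.4 and 5.61 CPM there.

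*Ltbp2* (12:84783212-84876532, minus strand), an LTBP that binds fibrillin but no latent TGF-β, was nearly absent from myogenic cells, with 4 UMIs in B10 and 84 in *mdx*, and 8 in DBA and 107 in D2-*mdx*. That is 0.10, 2.09, 0.27 and 3.08 CPM, below the 10 CPM set for counting a gene, so it is not among the genes called. The dystrophic libraries were higher on these small counts, with log2 ratios of 4.38 (2.97 to 6.29) and 3.53 (2.50 to 4.78). Of its 21 UMIs in the MuSC-like cells of *mdx* and 50 in those of D2-*mdx*, 16 and 39 fell in the *Esm1* and *Fosl1* cluster, at 5.38 and 14.5 CPM. Fibro-adipogenic or tenocyte cells were highest, at 48.8 CPM (33.2 to 69.3) in D2-*mdx*, and Schwann, endothelial, vascular smooth muscle and white blood cells gave 0 UMIs in every library, which for the endothelial cells of *mdx* allows up to 1.68 CPM.

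*Ltbp3* (19:5740904-5758532, plus strand), which also binds the latent complex, stayed within 2-fold in all 4 pairs. Its myogenic level was 63.4 CPM in B10 and 51.8 in *mdx*, and 63.1 in DBA and 60.5 in D2-*mdx*, with ratios of -0.29 (-0.38 to -0.21) and -0.06 (-0.15 to 0.03). Within MuSC-like cells the ratios took opposite signs, -0.13 (-0.23 to -0.02) in *mdx* over B10 and 0.22 (0.12 to 0.33) in D2-*mdx* over DBA. Fibro-adipogenic or tenocyte cells led at 131 CPM, in 50 cells of the D2-*mdx* library alone. Glial cells followed with a mean of 91.3, Schwann cells with 79.1 and MuSC-like cells with 65.1. The ranges over libraries of glial, Schwann and MuSC-like cells did not overlap, while MuSC-like cells overlapped the immunomyoblasts below them. Schwann cells held only 33 *Ltbp3* UMIs in *mdx* and 29 in D2-*mdx*, and this order was not set against counting error. Endothelial cells had 8 UMIs in *mdx* and 4 in D2-*mdx*, a mean of 4.36 CPM.

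*Ltbp4* (7:27305136-27337692, minus strand), the modifier of dystrophy on the DBA background, had 12136 UMIs in B10 and 4540 in *mdx*, and 5827 in DBA and 4370 in D2-*mdx*. Its level was 304 CPM (299 to 310), 113 (110 to 116), 193 (188 to 198) and 126 (122 to 129). B10 stood alone at the top, DBA was in between, and the dystrophic libraries were the lowest, with no intervals overlapping. The log2 ratio was -1.43 (-1.48 to -1.38) in *mdx* over B10, -0.62 (-0.68 to -0.57) in D2-*mdx* over DBA and -0.65 (-0.70 to -0.61) in DBA over B10. The ratio of dystrophic over healthy was less negative on the DBA background by 0.81 (0.73 to 0.88).

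Within MuSC-like cells *Ltbp4* was at 306 CPM (300 to 311) in B10 and 149 (144 to 155) in *mdx*, and 196 (190 to 201) in DBA, with 178 (172 to 185) in D2-*mdx*. B10 stood apart from the other 3, with ratios of -1.03 (-1.09 to -0.98) in *mdx* over B10 and -0.13 (-0.20 to -0.07) in D2-*mdx* over DBA. The same held in the largest cluster, -1.02 and -0.07, and in the next, -0.85 and 0.03. In the *Esm1* and *Fosl1* cluster both dystrophic libraries were lower, -1.64 (-1.83 to -1.45) and -0.83 (-1.04 to -0.63), as they were in differentiating myocytes, -1.84 and -0.87. DBA was below B10 in MuSC-like cells (-0.64, -0.69 to -0.60) and in differentiating myocytes (-0.72, -0.94 to -0.50).

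Reads were aligned to a C57BL/6 reference, and sequence differences of the DBA strain, which the 3′ tags read only near transcript ends, were not tested as a source of the lower *Ltbp4* count in DBA. The protein-altering difference in *Ltbp4* that DBA mice are known for is not read by these tags. The symbol is listed under 2 identifiers, of which ENSMUSG00000108715 held 0 UMIs in every library.

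Across classes *Ltbp4* was highest in endothelial cells, 316 CPM (293 to 340) in *mdx* and 301 (264 to 341) in D2-*mdx*, and their range overlapped those of immunomyoblasts, with a mean of 208 (105 and 310), and of MuSC-like cells, with 207 (149 to 306). The interval of the MuSC-like cells of B10, at 306 CPM (300 to 311), lay within that of the endothelial cells of D2-*mdx*. Vascular smooth muscle was lowest at 4.91. MuSC-like RNA would carry 4.53 and 8.39 CPM into the endothelial cells, and endothelial RNA 0.449 and 0.488 into the myogenic ones. Endothelial cells, which the CD31 gate should have removed, gave 12.2% of the *Ltbp4* UMIs of *mdx* and 4.4% of those of D2-*mdx*. Of the myogenic cells thinned to 3000 UMIs, 57.4%, 30.1%, 43.2% and 33.9% held a UMI of *Ltbp4* in B10, *mdx*, DBA and D2-*mdx*.

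**Figure D5:**
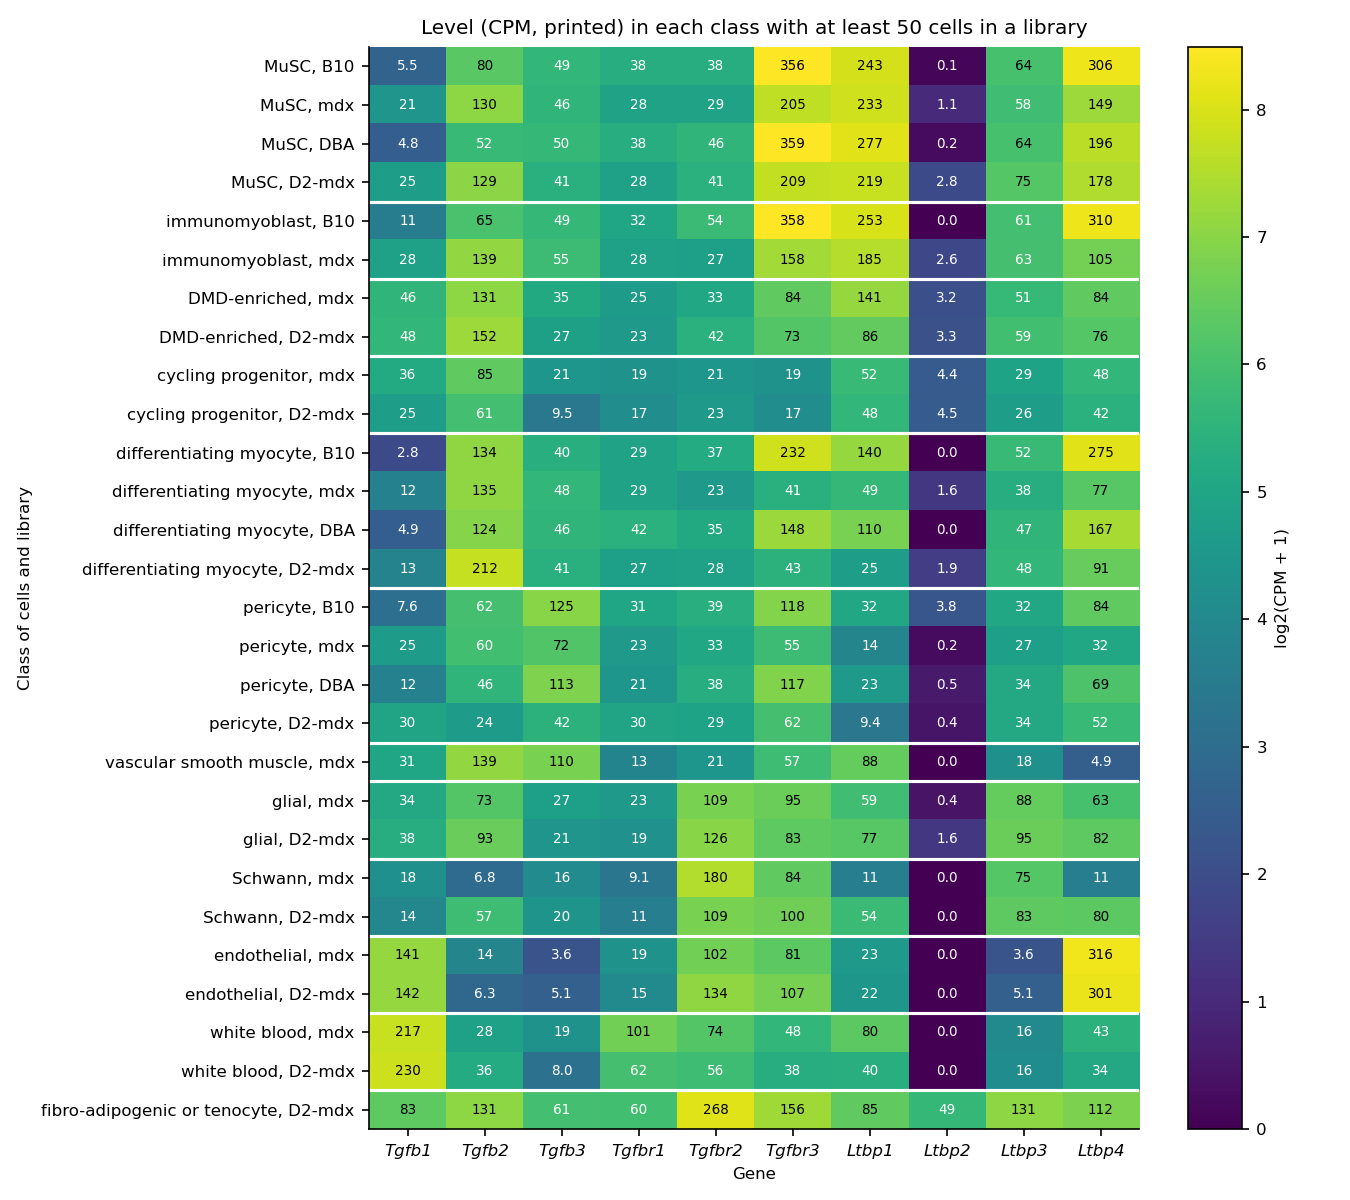
Level of the 10 genes (columns) in each class of cells and library with at least 50 cells (rows), with the CPM printed in each cell and the colour giving log2(CPM + 1). *Tgfb1* is highest in white blood (217 and 230 CPM) and endothelial cells (141 and 142), *Tgfbr3* and *Ltbp1* in MuSC-like cells and immunomyoblasts, and *Tgfbr2* in fibro-adipogenic or tenocyte cells (268).

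Genes with the most similar pattern were sought for each member over the 28 sums of 1 class in 1 library with at least 50 cells, by Pearson r of log2(CPM + 1). These points share libraries and depth, so the r values are descriptions. *Tgfb1* was most like *Sh3bgrl3* (0.90), *Gdi2* (0.89) and *St6galnac4* (0.88). *Tgfb2* was most like *Nol3* (0.87), *Txndc5* (0.85) and *Pecr* (0.84), and *Tgfb3* like *Ntn4* (0.91), *Hoxc6* (0.88) and *Cacna2d1* (0.88).

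Of the receptors, *Tgfbr1* followed *Emilin2* (0.86) and *Rgs2* (0.85). *Tgfbr2* followed *Sdf4* (0.90), *Arhgef28* (0.83) and *Chmp2a* (0.82), and *Tgfbr3* followed *Nfat5* (0.90), *Nfia* (0.89) and *Eif4a2* (0.88). Of the binding proteins, *Ltbp1* was most like the MuSC marker *Chodl* (0.88), then *Gxylt2* (0.87). *Ltbp3* had *Plxdc2* (0.90), *Uggt2* (0.89) and *Casc4* (0.87), and *Ltbp4* had *Itpr2* (0.93), *Cyp2d22* (0.90) and *Slc43a3* (0.89).

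The wider pathway was read from 6 lists over the myogenic cells, as counts of genes past 2-fold among those with at least 10 CPM, beside the same shares of 9.82% and 11.7% of all genes. Of the genes that release latent TGF-β, 1 of 10 was higher and 0 lower in *mdx* over B10, and 1 was higher and 1 lower in D2-*mdx* over DBA. *Thbs1*, encoding thrombospondin 1, was at 2.66, 25.2, 5.44 and 32.8 CPM in B10, *mdx*, DBA and D2-*mdx*, with ratios of 3.25 and 2.59. *Mmp2*, a gelatinase, was at 178, 104, 345 and 95.8 CPM and past 2-fold only on the DBA background (-1.85). *Itgb1*, the β1 integrin, was at 349, 431, 426 and 416 CPM and *Mmp14*, a membrane protease, at 37.5, 70.7, 43.9 and 62.9, both within 2-fold.

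Of the matrix partners of the LTBPs, 2 of 7 were higher and 0 lower in *mdx* over B10, and 2 of 9 were higher and 2 lower in D2-*mdx* over DBA. Fibronectin, *Fn1*, was at 7.02, 21.8, 3.49 and 20.2 CPM, higher in both dystrophic libraries (1.63 and 2.54). *Fbln5*, a fibulin of elastic fibres, was at 7.55, 0.77, 13.7 and 2.50 CPM, lower in both, and reached 10 CPM only in DBA. *Fbn1*, fibrillin 1, at 93.9, 90.5, 80.7 and 103 CPM, *Loxl1*, a lysyl oxidase, at 114, 163, 83.8 and 128, and *Emilin1* at 60.4, 47.6, 68.8 and 53.8 stayed within 2-fold.

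Of the co-receptors and binders of TGF-β, 2 of 6 were higher and 2 lower in *mdx* over B10, and 3 of 6 were higher and 1 lower in D2-*mdx* over DBA. Decorin, *Dcn*, a proteoglycan that binds the ligand, was at 3.33, 10.4, 6.34 and 56.7 CPM, highest in D2-*mdx* and past 2-fold there also over *mdx* (2.45). *Dcn* was also a leading gene of the fibro-adipogenic or tenocyte cells, which numbered 7, 29, 7 and 50. RNA carried from them into the myogenic cells was not estimated. Biglycan, *Bgn*, was at 163, 295, 121 and 351 CPM, with ratios of 0.85 and 1.53. *Cd109*, a membrane co-receptor, was at 2.33, 16.3, 3.02 and 14.7 CPM, and *Htra1*, a secreted protease, at 43.7, 15.7, 55.2 and 21.5, higher and lower in both dystrophic libraries, respectively. *Sdc2*, a syndecan, was at 79.2, 118, 81.0 and 115 CPM.

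None of the 16 genes of the Smad relay passed 2-fold in either pair, the median ratios being -0.11 and -0.05. *Pmepa1*, a target and brake of the pathway, was at 602, 436, 500 and 488 CPM. *Skil*, a repressor of Smads, was at 135, 111, 120 and 123 CPM, and *Smad4* at 109, 123, 105 and 83.7. Averaged over both pairs, the largest ratios of the list by size were those of *Ski*, at 131, 73.1, 96.2 and 61.3 CPM (-0.84 and -0.65), and *Zfyve9*, which brings Smads to the receptor, at 80.2, 47.6, 77.3 and 40.2 CPM (-0.75 and -0.94).

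Among the targets of TGF-β, 9 of 21 were higher and 1 lower in each pair, with medians of 0.42 and 0.74. The higher ones in both were *Col1a1*, *Col1a2*, *Fn1*, *Postn*, *Timp1*, *Cdkn2b*, *Cdkn1a* and *Tpm1*, joined by *Acta2* in *mdx* over B10, and *Timp3* was the lower one. The list was chosen with earlier results of these data known. The paper had already reported *Col1a1*, *Col1a2*, *Fn1*, *Cdkn1a* and *Cdkn2b* as higher in both models. These counts are therefore descriptions, and a response to TGF-β was not tested. *Col1a1*, *Col1a2* and *Postn* are also markers by which the DMD-enriched state was named. In MuSC-like cells alone *Col1a1* was at 18.9, 73.0, 10.0 and 73.7 CPM and *Col1a2* at 9.76, 267, 12.6 and 151, still past 2-fold in both pairs, and *Postn* was at 0.471 CPM in B10 and 16.3 in *mdx*. *Postn* was at 0.451, 119, 2.22 and 56.8 CPM, and *Timp1*, an inhibitor of metalloproteinases, at 1.08, 92.5, 1.59 and 103, both over all myogenic cells. *Junb*, an immediate-early gene that dissociation is known to raise, was at 3786, 3212, 3143 and 3810 CPM, and *Col3a1* at 809, 1018, 1017 and 972, both within 2-fold.

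Of the activins, myostatin and their inhibitors, 1 of 5 was higher in *mdx* over B10 and 0 in D2-*mdx* over DBA, with 0 lower in both. The one was *Inhbb*, the subunit of activin B, at 36.7, 80.0, 27.8 and 49.2 CPM (1.12 and 0.82). *Fstl1* was at 195, 178, 162 and 164 CPM and *Acvr2a*, an activin receptor, at 33.4, 49.3, 27.5 and 31.4. *Fstl3*, an inhibitor of activin and myostatin, was at 16.7, 13.6, 7.50 and 12.4 CPM and past 2-fold only between the healthy libraries, in DBA over B10 (-1.15). *Smad7*, the inhibitory Smad, was also lower in DBA than in B10 (-1.39).

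Within MuSC-like cells alone the counts of some lists differed. Of the targets, 6 of 21 were higher and 1 lower in *mdx* over B10, and 10 of 20 were higher and 1 lower in D2-*mdx* over DBA, with medians of 0.37 and 0.96, where 6.44% and 7.38% of all genes passed 2-fold. In *mdx* over B10 *Acta2*, smooth muscle actin (174 CPM in B10, 171 in *mdx*), *Tpm1*, a tropomyosin (96.7 and 126), and *Fn1* (7.10 and 12.01) were no longer past 2-fold. In D2-*mdx* over DBA *Tpm1* (140 CPM in DBA, 217 in D2-*mdx*) was not either, and *Postn*, under 10 CPM in both, was not counted. *Ccn2*, a matricellular growth factor (18.8 and 44.7), *Bhlhe40*, a transcriptional repressor (94.7 and 203), and *Smad7* (21.3 and 46.8) were past it in the MuSC-like cells of that pair but not over all its myogenic cells. *Smad7* was thereby the single gene of the Smad relay past 2-fold in that pair.

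Of the matrix partners, 0 of 7 were past 2-fold in the MuSC-like cells of *mdx* over B10, while 2 of 9 were higher and 1 lower in D2-*mdx* over DBA. The genes that release latent TGF-β gained *Plat*, the tissue plasminogen activator, as higher in both pairs. Of the activin genes, *Inhbb* was higher in both pairs and *Fstl3* in D2-*mdx* over DBA.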

How the data were processed

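By their methods and processing notes, the authors used Cell Ranger 3.0.1 with the mm10 reference, and they deposited raw counts of UMIs per gene and barcode for 4 libraries of sorted satellite cells, 1 per strain, without normalization. Limits followed the study: 1000 to 5000 genes per cell, and up to 8% of UMIs from mitochondria. Predicted doublets (Scrublet in scanpy 1.11.5, expected fraction 0.008 per 1000 cells) were removed, leaving 37016795 to 52742197 UMIs per library.

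Libraries were integrated by canonical correlation in Seurat 5.3.0 (R 4.3.3) with 2000 variable features, the 10 genes left out, and 30 dimensions. Clusters at resolutions of 0.15 (all cells) and 0.3 (myogenic cells) were named by their highest mean of standardized marker levels. These resolutions were chosen after the clusters were seen: at the study's 0.1 interferon-rich myogenic cells merged with white blood cells, and at its 0.2 the DMD-enriched and differentiating cells merged. A group of 18 cells led by *Cd74* and *Ptprc* stayed unnamed and was left out. Classes with at least 50 cells in a library entered the comparisons by class.

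UMIs were summed over the cells of a library or class and scaled to CPM, and compared as log2 ratios. Likeness used log2(CPM + 1). Shares of cells were taken after thinning to 3000 UMIs. The RNA carried between classes was estimated from the level of the source's markers in the receiving class. Intervals were tested on simulated data. Named genes were the 10 members, *Dmd*, in each list the 3 with the highest mean CPM and the 2 with the largest mean ratio, in size, of dystrophic over healthy, and the 3 genes most like each member, of which some are not reported here. *Smad7*, *Plat* and the other targets named were added after their values were seen. *Ltbp2*, under 10 CPM in all libraries, was left out of counts and likeness. The members and lists were chosen with earlier results of these data known.

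Alternatives changed 1 choice at a time, except for the first, which changed both limits on genes: a minimum of 500 genes without an upper limit, a limit of 5% on mitochondrial UMIs, doublets kept, library sizes of edgeR 4.0.16 (TMM) or DESeq2 1.42.0, cells weighted equally (counts per 10000), MuSC-like cells alone, all kept cells, the mix of states held equal, 1.5-fold, 50 CPM or no minimum, thinning to 2000 or 5000 UMIs, no integration, 20 dimensions and resolution 0.4. Changing each limit on genes alone, counting the lists in MuSC-like cells, leaving out the interferon cluster, leaving out myogenic cells with UMIs of other cell types' markers, and resolution 0.2 were chosen after the data were seen. Coordinates of genes are on GRCm38. Scripts ran under Python 3.11.15 (pandas 2.3.3, scipy 1.17.1, numpy 2.4.6, matplotlib 3.10.9).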

Additional observations from a re-analysis of the deposited data

Results flagged for a closer look

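*Ltbp3* differed in sign between the pairs of dystrophic over healthy libraries within MuSC-like cells, with a log2 ratio of -0.13 in *mdx* over B10 and 0.22 in D2-*mdx* over DBA, and this difference was not tested. In D2-*mdx* over DBA, *Tgfb2* was higher in MuSC-like cells (1.31) and differentiating myocytes (0.78) but lower in pericytes (-0.90), where 484 DBA and 981 D2-*mdx* cells were summed. *Tgfbr1* showed the opposite order in that pair, lower in MuSC-like cells (-0.45) and differentiating myocytes (-0.67) and higher in pericytes (0.52). Each of these ratios has a counting interval that does not include 0. The differences between cell types were not tested, as each strain is 1 library.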

How the results depend on the processing

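No paired analysis was possible because each strain was measured in 1 library and the labels give no replicate numbers. The number of genes past 2-fold in D2-*mdx* over DBA, 3 as reported, was 5 with at least 500 genes per cell and no upper limit, where 19.1% of all genes passed. It was 3 with 500 genes and the upper limit kept (11.6%) and 5 with 1000 genes and no upper limit (19%), both with the classes of the wider clustering. At 1.5-fold it was 7, and that in DBA over B10, 0 as reported, was 1, where 30.6% and 8.89% of all genes passed. With no upper limit on genes, *Tgfb3* (-1.02), *Ltbp1* (-1.21) and *Ltbp4* (-1.10) passed 2-fold in D2-*mdx* over DBA, and *Tgfb2* (0.85) did not, with either minimum. The share of all genes past 2-fold with no minimum level was 33.7% in *mdx* over B10, 35.5% in D2-*mdx* over DBA, 25.8% in D2-*mdx* over *mdx* and 25.7% in DBA over B10. At a minimum of 50 CPM it was 2.29% in D2-*mdx* over *mdx*.

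Over 13 alternatives, *Tgfb1* ranged from 1.84 to 2.64 in *mdx* over B10 and from 2.17 to 2.71 in D2-*mdx* over DBA. *Tgfbr3* ranged from -1.54 to -0.80 and from -1.89 to -0.78, and was within 2-fold in MuSC-like cells alone and with the mix of states held equal. *Ltbp4* in *mdx* over B10 ranged from -1.62 to -1.03. Each kept its sign in all 13. *Ltbp3* in D2-*mdx* over DBA ranged from -0.50 to 0.22 and kept its sign in 7 of 13. The class with the highest level stayed the same under the 4 other clusterings for 9 of the 10 genes, the exception being *Tgfb2*. Leaving out cells with other cell types' markers removed 24.8% to 50.1% of the myogenic cells. Depth limits *Ltbp2* in all libraries, *Tgfb1* in healthy ones and classes of few cells. With 1 library of 2 pooled mice per strain, differences between mice cannot be told apart from those between strains.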
